A study of Oryza sativa with 8 samples.

Results

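The lipoxygenase family of rice was followed through 10 loci listed as 9- and 13-lipoxygenases, among them LOC_Os08g39840, which the list names as induced by herbivores. The members were picked by locus number, and all 10 were found in both count tables, among 55986 gene models. RNA was sequenced from booting-stage stems of the line SM92, described as tolerant of the yellow stem borer, and of the line SM, described as susceptible. Each line has 4 labelled samples, namely 2 infested with larvae and sampled 72 hours later and 2 uninfested ones from the matching time. All samples were taken from plants grown in the field, with larvae placed on the tillers by hand. The count columns are named Y1 to Y8, and their line alone is known, because there is 1 count table per line and the label of a sample says which of them it is in. Infested and uninfested libraries could therefore not be told apart, no response to the larvae is given, and the comparison is SM92 (Y3, Y4, Y7 and Y8) against SM (Y1, Y2, Y5 and Y6). Each line mixes both states in equal number, so the spread within a line also holds any effect of infestation.

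Lipoxygenases add oxygen to polyunsaturated fatty acids such as linolenic acid, at one or the other of a pair of carbon positions that gives the enzymes their class names. In plants the 13-lipoxygenases of the plastid open the route to jasmonates and to green leaf volatiles, which are known for their part in wound and insect defence. The 9-lipoxygenases feed other oxylipins. The deposited tables do not say which of the 10 loci belongs to which class, so no class is given to a single locus, and the induction of LOC_Os08g39840 by herbivores is background that the tables do not annotate.

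The 10 loci lie on 6 chromosomes of the MSU release 7 annotation, and none overlaps another gene model on either strand. LOC_Os08g39840 (chromosome 8, 25216363 to 25224080, minus strand) and LOC_Os08g39850 (25240906 to 25250279, plus strand) are neighbours that point away from each other, with 16.8 kb and no gene model between them. On chromosome 12, LOC_Os12g37260 (22854611 to 22860200, minus strand) and LOC_Os12g37320 (22920107 to 22923778, plus strand) are 59.9 kb and 5 gene models apart. Chromosome 3 holds LOC_Os03g49260 and LOC_Os03g49380, 53.2 kb and 9 gene models apart on the plus strand, and LOC_Os03g52860 a further 2202.2 kb away. The remaining loci are LOC_Os05g23880, LOC_Os02g10120 and LOC_Os04g37430 (chromosome 4, 22305064 to 22309320, plus strand). Reads were counted over the whole gene, introns included, and exon positions are not used here.

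The libraries held between 50540724 and 57603629 counted fragments. They did not vary evenly within a line. Y3 and Y4, Y7 and Y8, and Y5 and Y6 nearly coincided, with a chi-square per degree of freedom of 1.62 to 3.12 over genes, where sampling noise alone gives about 1; the other 9 pairs within a line gave 95.67 to 342.46. A line's 4 libraries may thus stand for fewer independent samples, and p-values over 8 libraries may be too small. The edgeR fit of each member that passed the filter on low counts is therefore also given with these 3 pairs summed, which leaves 2 units of SM92 and 3 of SM. The exact permutation tests and the fits without that filter use the 8 libraries as separate units. Each of the 3 loci listed for stem secondary wall had counts in every library. Their summed levels were 85.1 to 253 CPM (counts scaled by library size) in SM92 and 270 to 938 CPM in SM. All 3 were called lower in SM92 with 8 libraries, where 19.7% of all gene models tested were called lower. With pairs summed none of the 3 was called by edgeR, and all 3 were lower at an unadjusted p under 0.05. The 5 loci listed for green tissue summed to 1330 to 2070 CPM in SM92 and 858 to 1310 CPM in SM, with a single locus holding most of the sum in the SM92 libraries and a different one in the SM libraries; 2 of the 5 were called higher and 2 lower in SM92 with 8 libraries, and none higher and 1 lower by edgeR with pairs summed (2 higher and 1 lower there at an unadjusted p under 0.05). The 5 listed for young panicle summed to 1170 to 1310 CPM in SM92 and 427 to 584 CPM in SM. With 8 libraries 2 of them were called higher and 1 lower in SM92, and with pairs summed 1 higher and none lower. The 2 higher ones, LOC_Os03g54160 and LOC_Os07g01820, held most of the sum, and LOC_Os03g54160 was lowest in Y5 and Y6 of SM (13177 and 12174 counts). Of the panicle loci, 3 low ones, singled out after their values were seen, summed to 44 to 59 counts in the SM92 libraries and to 15 and 18 counts in Y1 and Y2 of SM, but to 3485 and 3073 counts in Y5 and Y6 of SM. Y5 and Y6 thus stand apart in these 3 loci, and the part of such differences in tissue in any result below was not tested. In bulk stem tissue, fewer cells of a type and less RNA per cell cannot be told apart.

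Most lipoxygenase signal came from LOC_Os03g49380 and LOC_Os04g37430. Together they held 96.4% to 96.8% of the family's CPM in the SM92 libraries and 95.6% to 98.4% in the SM libraries. Levels compared between loci are given as CPM per kilobase of gene span, with CPM scaled by TMM (edgeR's trimmed-mean normalization). In SM92 the median level was 138 CPM per kb for LOC_Os03g49380, 80.2 for LOC_Os04g37430, 3.58 for LOC_Os12g37260, 2.99 for LOC_Os05g23880, 0.362 for LOC_Os03g52860, 0.118 for LOC_Os08g39850 and 0.109 for LOC_Os12g37320. In SM it was 107 CPM per kb for LOC_Os03g49380, 35.8 for LOC_Os04g37430, 3.4 for LOC_Os05g23880, 0.891 for LOC_Os03g52860, 0.262 for LOC_Os08g39850 and 0.0647 for LOC_Os12g37320. The remaining loci lay at or under 0.025 CPM per kb in either line. The ranges of neighbours in this order overlapped between LOC_Os12g37260 and LOC_Os05g23880, between LOC_Os08g39850 and LOC_Os12g37320, and among the lowest 3 loci in SM92. In SM they overlapped from LOC_Os03g52860 downwards. Among all gene models, LOC_Os03g49380 ranked 345 by median level per kb in SM92 and 349 in SM, and LOC_Os04g37430 ranked 671 in SM92 and 1411 in SM.

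**Figure D1:**
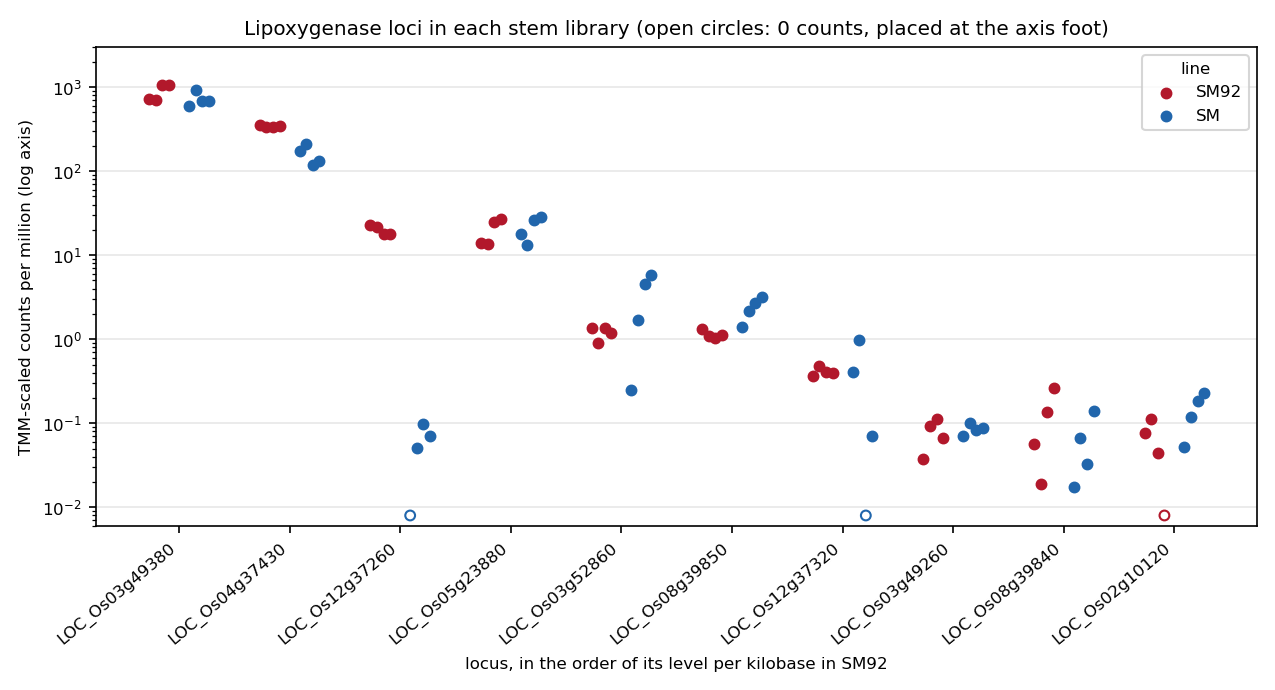
TMM-scaled CPM (log axis) of the 10 lipoxygenase loci in every library, with SM92 at the left and SM at the right of each locus; open circles are libraries with 0 counts. LOC_Os12g37260 sits between 17.8 and 22.8 CPM in SM92 and at or under 0.0994 CPM in SM, while LOC_Os03g49380 is the highest locus in both lines.

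**Figure D2:**
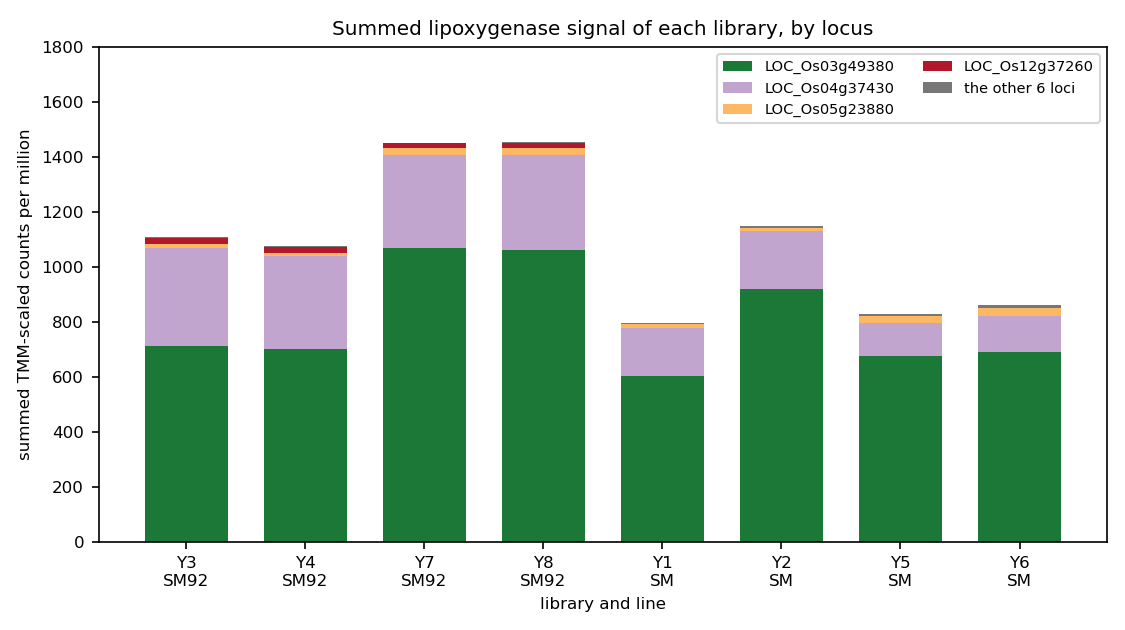
Summed TMM-scaled CPM of the 10 loci in each library, the SM92 libraries at the left and the SM libraries at the right, stacked by locus. The sum was 1080 to 1450 CPM in SM92 and 795 to 1150 CPM in SM, and nearly all of it came from LOC_Os03g49380 and LOC_Os04g37430.

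Of the 10 loci, 7 had enough counts for the model across all genes, edgeR's quasi-likelihood test on 24892 gene models with Benjamini-Hochberg adjustment. With 8 libraries, 3 of these 7 passed the adjusted threshold of 0.05, namely LOC_Os12g37260 and LOC_Os04g37430, higher in SM92, and LOC_Os08g39850, lower in SM92. Over all gene models tested the share called was 36.4%, with 16.7% higher and 19.7% lower, so the family's count is close to the background and is read locus by locus. With the near-identical pairs summed the background share was 9.41% (4.38% higher and 5.03% lower), and LOC_Os12g37260 was called while the other 2 were not. LOC_Os12g37260 passed the filter on low counts through SM92 alone, so being tested nearly fixed the direction in which it could be called. The median log2 fold change was 0.18 over the 7 loci and 0.00 over all gene models tested. These 3 loci were also those whose CPM ranges did not overlap between the lines, as was so for 40.6% of the gene models tested (SM92 above in 19.4% and below in 21.2%).

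LOC_Os12g37260 set the lines apart most. The locus had 1202, 1174, 807 and 801 counts in Y3, Y4, Y7 and Y8 of SM92, against 0, 3, 6 and 4 counts in Y1, Y2, Y5 and Y6 of SM. In CPM this was 22.8, 21.9, 18.1 and 17.8 in SM92, against 0, 0.0505, 0.0994 and 0.0706 in SM. All 4 SM92 libraries stood above all 4 SM libraries, and within SM92 the libraries lay close together. The log2 fold change was 8.44 (SE 0.54, approximate 95% interval 7.27 to 9.74, edgeR adjusted p = 2.28e-05), a 348-fold difference. With pairs summed it was 8.59 (interval 6.55 to 10.71, edgeR adjusted p = 0.00742). Since the SM side holds 13 counts in all, against 3984 in SM92, the ratio per library total is 326 with an exact binomial 95% interval of 190 to 613, which covers counting error only. A count of 0, as in Y1, allows up to 3 counts, or 0.0559 CPM on that library's raw total. Of all gene models tested, 152 had a larger log2 fold change. The exact two-sided permutation test on log2(CPM + 0.5) gave p = 0.0286, the smallest it can give with 4 libraries against 4. Leaving out Y5 and Y6 gave a log2 fold change of 9.48 (edgeR adjusted p = 0.000497) with the other near-identical pairs kept apart. With those pairs summed it was 9.54 (edgeR adjusted p = 0.0167).

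LOC_Os04g37430, the second most abundant locus, was higher in SM92 by the 8-library model. It had 356, 336, 336 and 346 CPM in Y3, Y4, Y7 and Y8 of SM92, against 172, 212, 118 and 133 CPM in Y1, Y2, Y5 and Y6 of SM. The lowest SM92 library was above the highest SM library, and the SM92 values were nearly level with TMM scaling. On raw library totals the SM92 values were less even, at 358, 338, 296 and 306 CPM. The log2 fold change was 1.11 (SE 0.19, interval 0.68 to 1.54, edgeR adjusted p = 0.00259), or 2.16-fold. With pairs summed it was 1.03 (interval 0.35 to 1.71), with an unadjusted p of 0.0109 and an edgeR adjusted p of 0.0775, so the call was lost there. Without Y5 and Y6 the log2 fold change was 0.83 (edgeR adjusted p = 0.00622) with the other near-identical pairs kept apart. With those pairs summed it was 0.85 (edgeR adjusted p = 0.0879). The range of log2(CPM + 0.5) within SM92 was 0.08, and 4.92% of the gene models tested had a smaller one. In SM the range was 0.84, with 67.5% of gene models below it.

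LOC_Os08g39850, the neighbour of LOC_Os08g39840, was lower in SM92 by the 8-library model. Its counts were 69, 59, 46 and 50 in Y3, Y4, Y7 and Y8 of SM92, against 79, 130, 165 and 182 in Y1, Y2, Y5 and Y6 of SM, or 1.03 to 1.31 CPM in SM92 and 1.39 to 3.21 CPM in SM. The ranges did not overlap, but Y1 of SM came close to the SM92 libraries. The log2 fold change was -1.06 (SE 0.28, interval -1.70 to -0.43, edgeR adjusted p = 0.0183). With pairs summed it was -0.93 (interval -2.06 to 0.20, edgeR adjusted p = 0.256). The SM libraries Y5 and Y6, which carried the high counts of 3 panicle loci, were also the highest for this locus, and without both the log2 fold change was -0.66 (edgeR adjusted p = 0.106). The call was also lost, by a narrow margin and with little change in the log2 fold change, without Y4 (-1.04, edgeR adjusted p = 0.0506), without Y7 (-1.01, 0.0512) and without Y5 alone (-0.99, 0.0502).

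**Figure D3:**
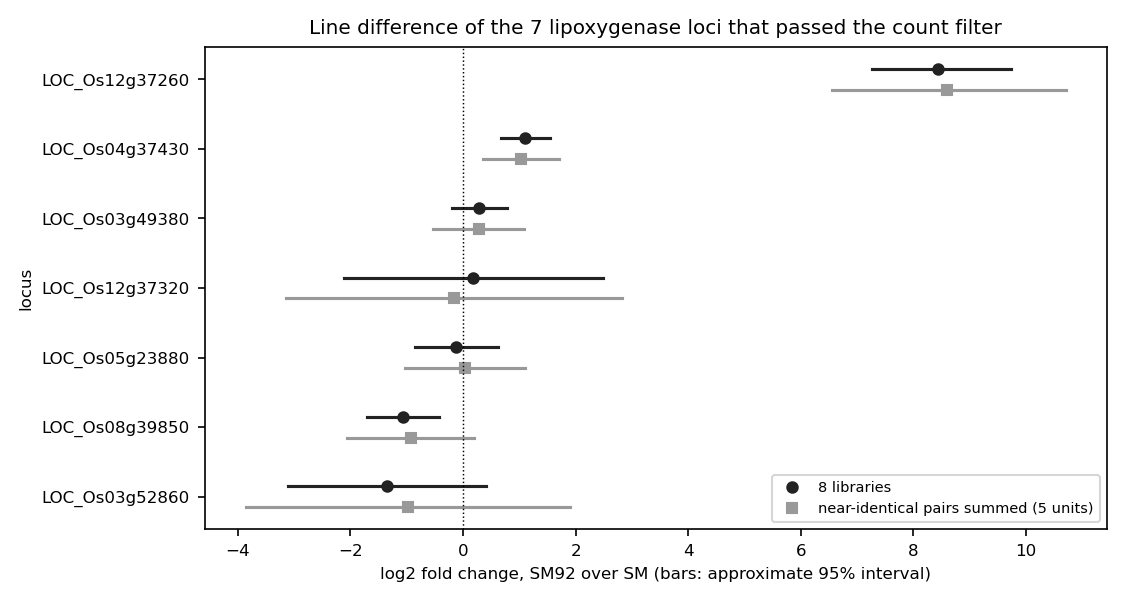
Log2 fold change of SM92 over SM for the 7 loci that passed the count filter; circles are the fit to 8 libraries, squares the fit with near-identical pairs summed, and bars approximate 95% intervals. LOC_Os12g37260 stands at 8.44 and 8.59, and the intervals of LOC_Os04g37430 lie above 0 in both fits.

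LOC_Os03g49380, the most abundant member, did not pass the test. It had 712, 702, 1070 and 1060 CPM in Y3, Y4, Y7 and Y8 of SM92, against 604, 918, 676 and 689 CPM in Y1, Y2, Y5 and Y6 of SM. Y7 and Y8 of SM92 exceeded every SM library with TMM scaling, while Y3 and Y4 lay inside the SM range. On raw library totals Y2 of SM, at 992 CPM, was above Y7 and Y8, at 940 and 934 CPM. The log2 fold change was 0.29 (interval -0.19 to 0.78, edgeR adjusted p = 0.314), and with pairs summed it was 0.28 (interval -0.53 to 1.08, edgeR adjusted p = 0.643). Both intervals leave room for a difference in either direction. The level per kb of LOC_Os03g49380 over that of LOC_Os04g37430 was 1.33 to 2.11 in the SM92 libraries and 2.34 to 3.81 in the SM libraries.

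LOC_Os05g23880 had a similar level in both lines and varied within each. Its CPM was 13.9, 13.7, 24.9 and 26.7 in Y3, Y4, Y7 and Y8 of SM92, against 17.9, 13.1, 26.4 and 28.5 in Y1, Y2, Y5 and Y6 of SM. The ranges overlapped almost entirely. The log2 fold change was -0.12 (interval -0.86 to 0.63, edgeR adjusted p = 0.807), and with pairs summed it was 0.03 (edgeR adjusted p = 0.973). Its range of log2(CPM + 0.5) was 0.94 in SM92 and 1.09 in SM, against medians over the gene models tested of 0.42 in SM92 and 0.59 in SM.

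LOC_Os03g52860 was the member that varied most within a line. It had 71, 49, 61 and 54 counts in Y3, Y4, Y7 and Y8 of SM92, against 14, 101, 276 and 330 counts in Y1, Y2, Y5 and Y6 of SM. The SM92 libraries lay inside the SM range, with Y1 below them and Y2, Y5 and Y6 above. The range within SM was 3.08 on the log2(CPM + 0.5) scale, and 98.9% of the gene models tested had a smaller one; within SM92 it was 0.40. The line difference was a log2 fold change of -1.35 (interval -3.11 to 0.41, edgeR adjusted p = 0.204), and -0.98 with pairs summed (edgeR adjusted p = 0.647). It reached an edgeR adjusted p of 0.0174 without Y1 of SM, with a log2 fold change of -1.74. Without Y5 and Y6, the libraries with the high counts of 3 panicle loci, the log2 fold change was 0.30.

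LOC_Os12g37320 was low and also uneven in SM. Its counts were 19, 26, 18 and 18 in Y3, Y4, Y7 and Y8 of SM92, against 23, 58, 0 and 4 in Y1, Y2, Y5 and Y6 of SM. SM92 was level, while SM had its highest value in Y2 and its lowest in Y5 and Y6. The log2 fold change was 0.18 (interval -2.12 to 2.49, edgeR adjusted p = 0.903), and it turned to -0.16 with pairs summed (edgeR adjusted p = 0.951). The nearby LOC_Os12g37260, at under 0.1 CPM in all SM libraries, did not follow it in Y2.

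LOC_Os08g39840, listed as herbivore-induced, was barely read in these stems. It had 3, 1, 6 and 12 counts in Y3, Y4, Y7 and Y8 of SM92, against 1, 4, 2 and 8 counts in Y1, Y2, Y5 and Y6 of SM. No library exceeded 0.266 CPM, the value of Y8, and the lines overlapped. LOC_Os03g49260 had 2, 5, 5 and 3 counts in the SM92 libraries Y3, Y4, Y7 and Y8, against 4, 6, 5 and 5 counts in the SM libraries Y1, Y2, Y5 and Y6. LOC_Os02g10120 had 4, 6, 2 and 0 counts in the same SM92 libraries, against 3, 7, 11 and 13 counts in the SM libraries. These 3 loci failed the filter on low counts; with pairs summed LOC_Os02g10120 passed it and was not called (edgeR adjusted p = 0.492). Fitted without that filter, their log2 fold changes were 0.83 for LOC_Os08g39840 (interval -1.08 to 2.79), -0.15 for LOC_Os03g49260 (-1.27 to 0.96) and -1.26 for LOC_Os02g10120 (-3.03 to 0.46), with edgeR adjusted p-values from 0.287 to 0.849. No difference between the lines was detected for these loci, and the intervals leave room for one in either direction. The exact two-sided permutation test gave p = 0.0286 for each of the 3 loci called with 8 libraries, and p = 0.1143 to 0.6857 for the other 7 members. The infested stems are among the 8 libraries, so LOC_Os08g39840 stayed at or under 12 counts in each of them at 72 hours, while its change against uninfested stems could not be tested.

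The gene models around the members were examined next. The 2 models on each side of every member gave 36 in all, of which 4 were called higher and 3 lower in SM92, 13 were not called and 16 were not tested. With pairs summed 3 were called higher and 2 lower, 15 were not called and 16 were not tested. The background share there was 9.41%, so these calls lay above it, and the 3 higher ones all lie between LOC_Os03g49260 and LOC_Os03g49380. The 7 calls among 20 tested models in the 8-library fit are close to the background of 36.4%. Of the 4 neighbours of LOC_Os12g37260, 1 had too few counts to be tested by edgeR in either fit. None was called higher in SM92 by edgeR in either fit, by DESeq2 or at an unadjusted p under 0.05. LOC_Os12g37250, which ends 4.0 kb before LOC_Os12g37260 on the opposite strand, had 0 counts in all SM92 libraries against 11 to 15 counts in each SM library. It was at least 16.3-fold lower in SM92, from a floor of 3 counts over the SM92 group. The edgeR adjusted p was 0.000917, and 0.0244 with pairs summed. Of the 5 gene models from LOC_Os12g37260 to LOC_Os12g37320, none passed the edgeR test in either fit, the DESeq2 test or an unadjusted p under 0.05, and 2 had too few counts to be tested. Between LOC_Os03g49260 and LOC_Os03g49380, 3 of 9 gene models were tested and all 3 were called higher in SM92 in both fits. Among them LOC_Os03g49270 summed to 666 counts in SM92 and 13 in SM, and LOC_Os03g49280 to 145 counts in SM92 and 1 in SM. These 2 passed the filter on low counts through SM92, and LOC_Os12g37250 passed it through SM. Being tested thus nearly fixed the direction in which each of them could be called. The members at the ends of the chromosome 3 stretch were not among the calls. How similar the gene copies are in sequence was not analysed here; fragments aligned to several places were not counted, so closely alike copies would be under-read.

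**Figure D4:**
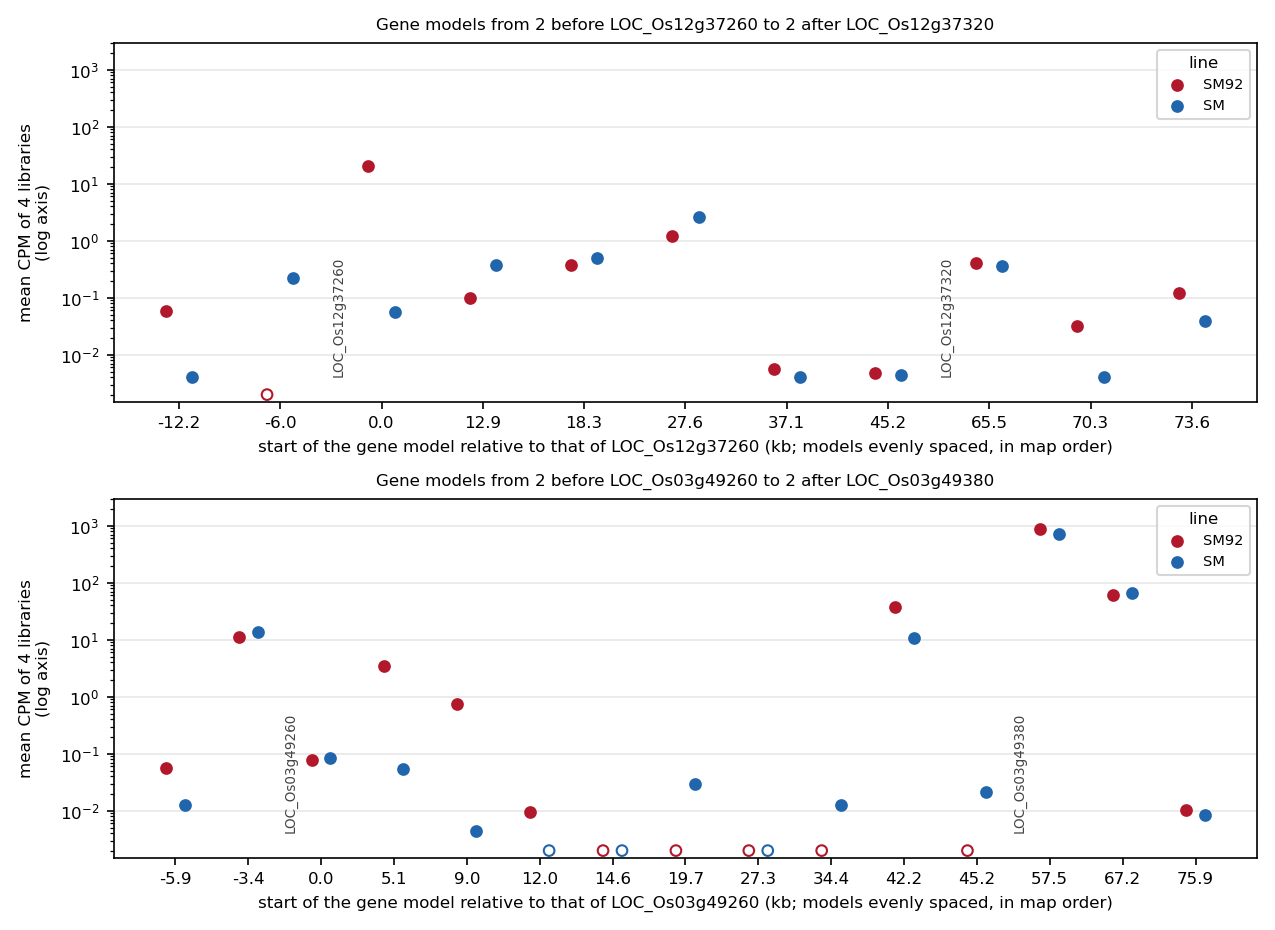
Mean TMM-scaled CPM of 4 libraries per line (log axis) for the gene models around the chromosome 12 pair (upper panel) and the chromosome 3 pair (lower panel), evenly spaced in map order and marked by distance in kb, SM92 at the left of SM; open circles are 0 counts. LOC_Os12g37260 averaged 20.2 CPM in SM92 and 0.0551 CPM in SM, and LOC_Os12g37250 beside it was at 0 in SM92 and averaged 0.223 CPM in SM.

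A list of 10 further loci was set for the steps around lipoxygenase, from the release of fatty acids to jasmonate synthesis and perception. It was drawn up from knowledge of the MSU locus numbers, which the deposited tables do not annotate. Of these 10 loci, none was called higher and 2 were called lower in SM92 in the 8-library fit. Another 6 were not called and 2 were not tested. Over all gene models tested in that fit 36.4% were called (16.7% higher and 19.7% lower). For the 10 loci DESeq2 called 1 higher and 2 lower, as did edgeR's unadjusted p under 0.05 in the 8-library fit. With pairs summed none was called by edgeR, and 2 were lower at an unadjusted p under 0.05. The list's median log2 fold change was 0.06, and its summed level was 824 to 973 CPM in SM92 and 805 to 957 CPM in SM, ranges that overlapped almost wholly.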

How the data were processed

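The authors' deposited values are raw fragment counts per gene, made with featureCounts 2.0.0 on the MSU release 7 annotation with strand option 2, per the file headers; fragments with both ends aligned were counted over whole genes, and chimeric ones were left out. FastQC, Trim Galore, STAR and DESeq2 are named in the submitters' processing notes; no version of them is stated there. Per the labels' protocols, total RNA was depleted of ribosomal RNA and libraries were reversely stranded.

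The 8 count columns were grouped by line. The planned contrasts of infestation were not run, because no column name matches a sample label. Library totals were 50540724 to 57603629 counts, so counting error is small except for loci with a few counts. Counts were fitted with edgeR 4.0.16 (R 4.3.3; TMM scaling, filterByExpr, quasi-likelihood test, Benjamini-Hochberg adjustment over all gene models tested). Standard errors and intervals were derived from the F statistic and are approximate. Alternatives were DESeq2 1.42.0, its size factors in edgeR, other count filters, each library left out, pairs summed, and Y5 with Y6 left out. The last 2 were chosen after seeing the data. The fit without Y5 and Y6 kept the other pairs apart unless stated. Pairs were summed where the chi-square per degree of freedom was under 5, over genes with at least 20 counts in the pair. Python 3.11.15, pandas 2.3.3, NumPy 2.4.6, SciPy 1.17.1 and matplotlib 3.10.9 were used for the rest.

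All 10 members are named, with gene models beside them; the members and lists were chosen with earlier results of these data known. LOC_Os03g49270, LOC_Os03g49280 and LOC_Os12g37250 were singled out after their values were seen. Of the deposited identifiers, 0 were found in a table of 39387 RefSeq rice genes, so no gene names were attached. Nothing in the labels says that the samples of a line came from separate plants, so p-values measure the spread between these libraries.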

Additional observations from a re-analysis of the deposited data

How the results depend on the processing

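No paired analysis was possible because columns Y1 to Y8 are tied to a line but to no replicate number. Contrasts of infestation, with their alternatives, were not run. With near-identical pairs summed, 2591 gene models were called in place of 9067 (1206 in place of 4152 higher and 1385 in place of 4915 lower); 2371 were shared, which is 91.5% of the 2591 and 26.1% of the 9067. Leaving out a unit after summing gave 418 to 1949 calls (226 to 823 higher, 189 to 1126 lower), and leaving out 1 library of the 8 gave 7366 to 9728 (3246 to 4420 higher, 4105 to 5308 lower). A lone SM92 unit left by such an omission is assumed to vary like the SM units.

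LOC_Os12g37260 kept its direction and its call under all 19 alternatives. Its log2 fold changes were 8.05 to 8.88 without 1 library and 8.13 to 9.54 without a summed unit. The locus passed the filter on low counts through SM92 alone and the alternatives refit the same counts, so the kept direction is no separate support. LOC_Os04g37430 kept its direction throughout; its call was lost with pairs summed (1.03) and in all 5 omissions after that (0.85 to 1.21), but in none of the 8 omissions of 1 library (0.99 to 1.28). LOC_Os08g39850 lost its call with pairs summed (-0.93), in all 5 omissions after that (-1.18 to -0.64), without Y5 and Y6 (-0.66) and in 3 of 8 omissions of 1 library (-1.25 to -0.89).

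Members that were not called changed sign in some settings. LOC_Os05g23880 gave 0.03 with pairs summed, 0.35 without Y5 and Y6, -0.29 to 0.05 without 1 library and -0.46 to 0.43 without a summed unit. LOC_Os12g37320 gave -0.16 with pairs summed, -0.75 without Y5 and Y6, -0.23 to 1.38 without 1 library and -0.73 to 0.98 without a summed unit. LOC_Os03g52860 gave 0.30 without Y5 and Y6, -1.74 to -0.85 without 1 library and -1.51 to 0.32 without a summed unit. LOC_Os03g49380 gave 0.20 to 0.43 without 1 library and -0.03 to 0.56 without a summed unit. The causes were not tested. LOC_Os03g52860 passed the threshold without Y1 (-1.74). Under the other pseudocount all 10 permutation results stayed on their side of the threshold, and on raw library totals 19 of 20 mean CPM values moved by less than 1 SD; the mean of LOC_Os04g37430 in SM92 was 325 CPM on raw totals against 343 CPM with TMM. For the loci with a few counts per library, the intervals of the fit without the filter on low counts were wide and included 0. How small a difference could be seen at these depths was not tested.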

Other observations

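A second list held 5 further loci taken as lipoxygenases from knowledge of the MSU locus numbers, again not annotated in the tables. In the 8-library fit 2 of the 5 were called higher in SM92, none was called lower by edgeR (1 at an unadjusted p under 0.05, and none by DESeq2), 1 was not called and 2 were not tested; with pairs summed 1 was called higher. One of them, LOC_Os03g49350, lies between the chromosome 3 members LOC_Os03g49260 and LOC_Os03g49380. It had 1460, 1448, 2110 and 2128 counts in Y3, Y4, Y7 and Y8 of SM92, against 718, 725, 546 and 515 counts in Y1, Y2, Y5 and Y6 of SM. Its log2 fold change was 1.80 (edgeR adjusted p = 0.000969, and 0.0327 with pairs summed). The other call was LOC_Os12g37350, whose number follows those of the chromosome 12 models examined above. It had 17, 27, 11 and 13 counts in the SM92 libraries against 3, 7, 0 and 0 in SM. This locus passed the filter on low counts through SM92, so being tested nearly fixed the direction of its call. Its log2 fold change was 2.93 (edgeR adjusted p = 0.0273, and 0.227 with pairs summed). Over all gene models tested 16.7% were called higher, and 4.38% with pairs summed.

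The gene models most like LOC_Os08g39840 in pattern over the 8 libraries were LOC_Os05g47680 and LOC_Os07g39620, with root mean square differences of 0.068 and 0.072 in centred log2(CPM + 0.5). With counts as low as those of LOC_Os08g39840 this likeness says little, since 1756 gene models lay within 0.2 of it.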
